A study of Mus musculus with 42 samples.

Results

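The 31 genes described here encode the clotting factors, the inhibitors that hold clotting in check and the plasminogen system that dissolves fibrin. The list was drawn up by gene name and role, with no threshold on a measured value but with earlier results of these data known, and its genes were looked up in liver RNA-seq of 42 female APOE*3-Leiden mice. All 31 were found among the 54446 genes of the count table, and all 31 stayed among the 15574 genes tested after the filter on low counts. On the Western-type diet (WTD), 21 of the 31 members were lower and 7 were higher than on chow. With atorvastatin added to the diet, 11 members were higher than on the diet alone and none was called lower by the main test.

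Every mouse carried the human APOE*3-Leiden transgene, which slows the clearance of lipoprotein remnants, so the chow group is a transgenic reference and not a wild-type one. The chow group held 10 mice kept on maintenance chow, the WTD group 16 mice and the WTD + atorvastatin group 16 mice. The WTD contained 15% cocoa butter, 40.5% sucrose and 1% cholesterol, was started at 8 to 14 weeks of age with a run-in of 3 weeks, and held 0.05% sodium cholate from week 22. Atorvastatin, an inhibitor of HMG-CoA reductase, was mixed into the diet at 3.0 mg/kg/day and raised to 4.5 mg/kg/day at week 5. All livers were taken at week 32. As the study describes them, these mice do not become obese or insulin resistant, and only females were used. Mice were housed in groups, and the labels do not name the cages.

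Hepatocytes make most plasma clotting factors, their serpin inhibitors, plasminogen and vitronectin. Clotting starts when tissue factor, the product of F3, meets factor VII, and it runs through factors X and V to thrombin, the product of F2. Thrombin cuts fibrinogen, the product of Fga, Fgb and Fgg, into fibrin, and factor XIII crosslinks the clot. Antithrombin, heparin cofactor II and the protein C, S and Z proteins restrain these steps. Plasmin, made from plasminogen by the activators encoded by Plat and Plau, breaks fibrin down. In whole liver RNA, fewer cells of a type and less RNA per cell cannot be told apart.

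Sequences before the transcription start are shown for 4 members whose levels the results turn on. These are Fgb and Fgg, fibrinogen genes that fell and lie on either side of Fga, and F3 and Plaur, which rose. Each is the 250 bases before the RefSeq start in GRCm38.p6, written 5′ to 3′ on the gene's own strand, with matches to the searched motifs in capitals. Fgb lies at chr3:83049864-83050113 on the minus strand, Fgg at chr3:83007474-83007723 on the plus strand, F3 at chr3:121723287-121723536 on the plus strand and Plaur at chr7:24462233-24462482 on the plus strand.
Fgb: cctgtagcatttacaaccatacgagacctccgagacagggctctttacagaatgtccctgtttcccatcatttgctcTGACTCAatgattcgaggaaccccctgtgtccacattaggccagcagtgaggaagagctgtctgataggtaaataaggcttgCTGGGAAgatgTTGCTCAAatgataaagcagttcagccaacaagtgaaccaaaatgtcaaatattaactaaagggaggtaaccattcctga
Fgg: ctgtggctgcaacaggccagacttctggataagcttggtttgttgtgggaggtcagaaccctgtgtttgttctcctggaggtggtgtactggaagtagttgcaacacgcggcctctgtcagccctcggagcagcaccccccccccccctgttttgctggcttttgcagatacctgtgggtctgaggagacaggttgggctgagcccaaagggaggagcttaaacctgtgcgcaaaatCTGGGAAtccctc
F3: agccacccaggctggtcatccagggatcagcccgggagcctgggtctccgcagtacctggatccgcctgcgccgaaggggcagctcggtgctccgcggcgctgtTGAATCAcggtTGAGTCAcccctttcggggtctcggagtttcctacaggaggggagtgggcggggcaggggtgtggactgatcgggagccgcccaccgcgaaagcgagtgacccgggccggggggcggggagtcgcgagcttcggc
Plaur: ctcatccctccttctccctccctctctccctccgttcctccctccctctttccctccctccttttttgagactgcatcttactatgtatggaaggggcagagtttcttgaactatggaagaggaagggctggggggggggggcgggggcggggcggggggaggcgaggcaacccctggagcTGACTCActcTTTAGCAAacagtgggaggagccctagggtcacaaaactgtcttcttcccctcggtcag

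The RefSeq table held 26 such windows for 24 of the 31 members, and 32851 windows in all. TTNNGCAA, a C/EBP site, was found on either strand in 7 of the 26 member windows (26.9%) and in 9.56% of all windows. CTGGGAA, an interleukin-6 response element, lay on either strand in 4 of 26 (15.4%) against 9.10%, and TGANTCA, the AP-1 site, in 4 of 26 (15.4%) against 6.75%. TATAAA on the gene's strand was in 1 of 26 windows against 7.59%, and CAAAGTCCA on either strand in 0 of 26 against 0.384%. The Fgb window held the AP-1 match starting 173 bases before the start, the interleukin-6 element at 91 and the C/EBP match at 80 bases, with no overlap between them. In Fgg the match was CTGGGAA at 13 bases, in F3 TGAATCA at 146 and TGAGTCA at 135 bases, and in Plaur TGACTCA at 69 and TTTAGCAA at 59 bases before the start. These matches describe letters, and factor binding was not measured.

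Several members are neighbours in the genome (GENCODE positions on GRCm38). Fgg (chr3:83007724-83015049), Fga (chr3:83026076-83033627) and Fgb (chr3:83040141-83049863, on the opposite strand) follow each other on chromosome 3. On chromosome 8, F7 (chr8:13026034-13035809), F10 (chr8:13037308-13056676) and Proz (chr8:13060914-13076026) lie in a row on the plus strand, and F11 (chr8:45241174-45262031) and Klkb1 (chr8:45266689-45294859) lie 4657 bases apart on the minus strand. The activator genes are apart from each other, with Plat at chr8:22757727-22782844, Plau at chr14:20836660-20843385 and the receptor gene Plaur at chr7:24462484-24475968, and F3 is at chr3:121723537-121735048. All 31 members are protein-coding genes, and counts were taken over their exons.

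Libraries held 15661381 to 36224054 gene counts, with a median of 20405093.5 for the chow mice, 21095129 for the WTD mice and 18180048.5 for the treated mice. In 8 libraries (Chow mice 2, 5 and 6, WTD mice 8, 9, 10 and 16, and treated mouse 8) over 20% of the genes at 1 to 2 CPM in their group had no count, which touches the weakly expressed members. The summed level of 7 hepatocyte markers was 112690 to 166640 CPM on chow, 54521 to 108310 CPM on WTD and 63516 to 131590 CPM on WTD + atorvastatin, and all 7 were called lower on WTD than on chow. The macrophage and monocyte markers summed to 161 to 237 CPM, 1005 to 2678 CPM and 785 to 1839.5 CPM in the same order. Among these 9 markers, Itgam, which shares its strand and exons with another gene model, was at 0 in every mouse, and the other 8 were called higher on WTD than on chow. Stellate cell and fibroblast markers, of which 4 of 8 were called higher on WTD, summed to 339.8 to 585 CPM on chow and 884 to 1731 CPM on WTD, and cholangiocyte markers, 5 of 5 called higher, to 77.2 to 156 CPM and 182 to 841 CPM. The other lists are given by their medians in the 3 groups. Endothelial markers summed to 359, 353 and 398 CPM, while on WTD Lyve1 (1.56) and Cdh5 (0.76) were called higher and Clec4g (-1.20) and Kdr (-0.44) lower. Platelet markers summed to 8.88, 7.99 and 7.62 CPM. Neutrophil markers summed to 10.0, 26.0 and 21.4 CPM, lymphocyte markers to 13.7, 15.3 and 14.3 CPM, and Kupffer cell markers to 325, 1239 and 1160 CPM. The part of these shifts in the changes of the members was not tested.

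Levels of different genes were compared per length, as RPKM, the count scaled by library size and by the length of the annotated exons. On chow, Fgg was the highest of the 31 members at 1957 RPKM, followed by Vtn at 1602, Fga at 1400, Fgb at 1347, Kng1 at 871 and Plg at 799.6 RPKM. Between them and Pros1, at 16.4 RPKM, lay 17 further members. The 7 weakest members on chow were Tfpi at 1.66, F3 at 1.61, Thbd at 1.15, Plau at 1.05, Plaur at 0.699, Plat at 0.241 and F13a1 at 0.0628 RPKM. These 7 and Pros1 were the 8 members with a positive change from chow to WTD, while the 23 more abundant members all had a negative one. On WTD, Plau reached 10.4 RPKM and F13a1 0.384 RPKM, still below Pros1 at 22.2 RPKM.

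For each gene the change is a log2 fold change with its standard error (SE), tested with edgeR's quasi-likelihood test across all 42 mice, and a gene is called at a Benjamini-Hochberg adjusted p under 0.01 over the 15574 genes, the threshold of the study. From chow to WTD, 28 of 31 members (90.3%) were called, against 33.5% of all tested genes. The 21 lower members compare with 16.0% of all genes called lower and the 7 higher members with 17.5% called higher. The median change of the members was -0.43, and that of all tested genes was 0.0265. In 8 members every WTD mouse lay below all chow mice, as in 2.43% of all genes, and in 1 member every WTD mouse lay above them, as in 3.40%.

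**Figure D1:**
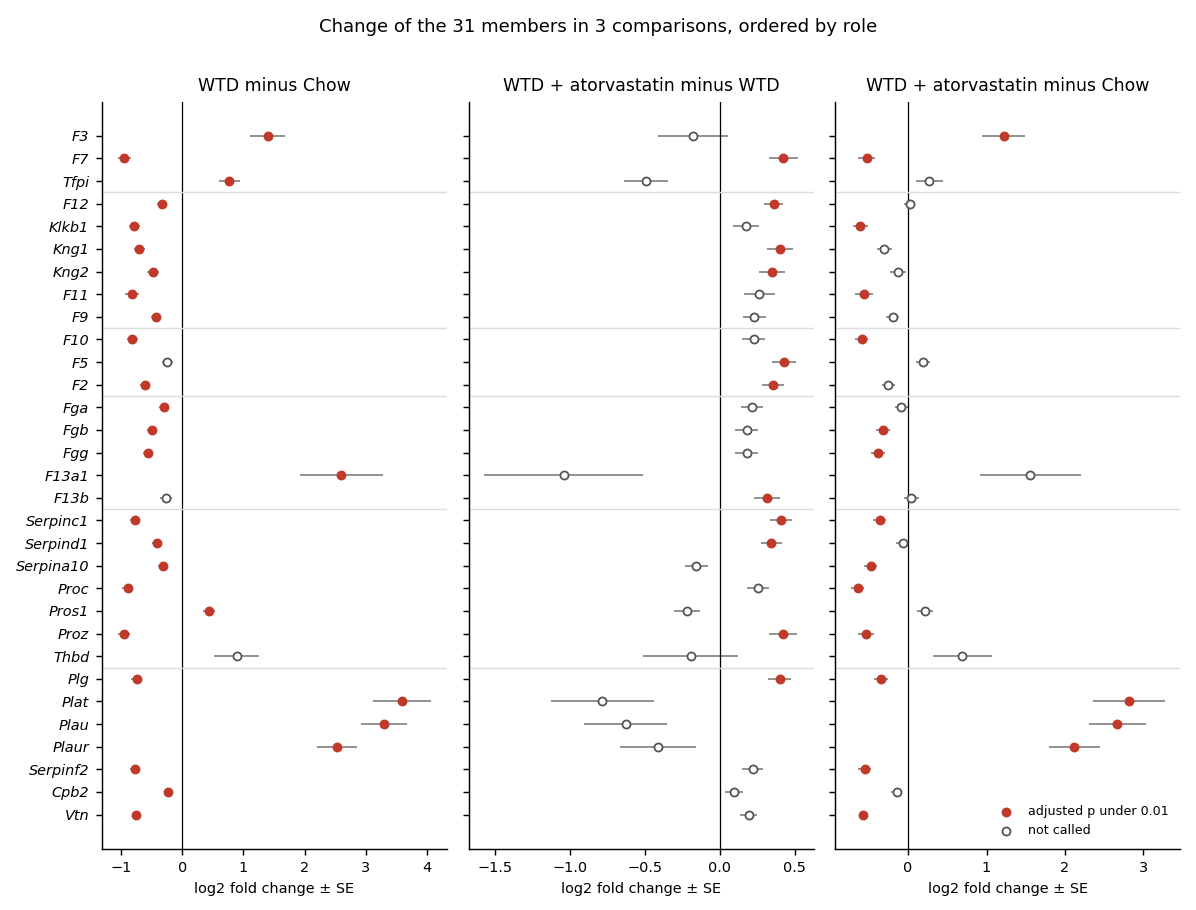
Log2 fold change (x axis, with SE bars) of the 31 members in 3 comparisons, ordered by role from the extrinsic start at the top to the plasminogen system at the bottom, each panel with its own x range. Filled points were called at an adjusted p under 0.01. On WTD most members sit left of 0 and F3, Tfpi, F13a1, Pros1, Plat, Plau and Plaur right of it, and all 11 filled points of the middle panel are right of 0.

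At the extrinsic start, the 3 members went in different directions on WTD. F7, which encodes the protease that tissue factor activates, ranged from 163 to 239 CPM on chow (median 207), from 78.8 to 157 CPM on WTD (median 103) and from 88.3 to 186 CPM with atorvastatin (median 151). All 16 WTD mice were below the lowest chow mouse, while the treated mice overlapped both groups. F7 fell by 48.3% on WTD (log2 fold change -0.95, SE 0.11, adjusted p = 2.3e-10). Its level was 1.34 times that on WTD in treated mice (0.42, SE 0.10, adjusted p = 0.0017) and remained lower than on chow (-0.53, SE 0.11, adjusted p = 0.00011). F3, tissue factor itself, ranged from 0 to 6.57 CPM on chow (median 4.26), 6.27 to 14.9 CPM on WTD (median 10.4) and 2.91 to 16.1 CPM in treated mice (median 9.30). All but 2 WTD mice exceeded the highest chow mouse, and 1 chow mouse had no F3 count. F3 was 2.63-fold higher on WTD than on chow (1.39, SE 0.28, adjusted p = 4.5e-05), and the difference between treated and WTD mice was -0.18 (SE 0.23, adjusted p = 0.72). Tfpi, which encodes the inhibitor of the tissue factor complex, had medians of 9.05 CPM on chow, 14.8 CPM on WTD and 10.8 CPM with atorvastatin. It rose on WTD (0.77, SE 0.17, adjusted p = 0.0002), with 16 of 16 WTD mice above the chow median and 8 above the highest chow mouse at 14.9 CPM. All 16 treated mice lay below the WTD median, but the difference of -0.49 (SE 0.15) missed the threshold with an adjusted p of 0.016. It passed in 6 of 9 alternative analyses, with adjusted p-values from 0.0014 to 0.021.

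All 6 members of the contact and intrinsic pathway were lower on WTD, with a median change of -0.59. Klkb1, plasma prekallikrein, ranged from 184 to 249 CPM on chow, 101 to 175 CPM on WTD and 95.3 to 192 CPM in treated mice. No WTD mouse reached the lowest chow mouse, and the fall was 41.9% (-0.78, SE 0.09, adjusted p = 9.1e-10). In 41.5% of the 150-base windows of its longest transcript Klkb1 shares sequence with the overlapping gene model Gm45753, where read pairs that fit both genes would have been left uncounted. Kng1, a kininogen gene, fell from a chow median of 2837 CPM (2542 to 3176) to 1662 CPM on WTD (1436 to 2832), and stood at 2349 CPM (1545 to 3077) in treated mice. Its change was -0.70 on WTD (SE 0.10, adjusted p = 1.9e-08) and 0.40 from WTD to treatment (SE 0.09, adjusted p = 0.00072), with 13 of 16 treated mice above the WTD median. F11, the factor XI gene, went from a median of 116 CPM on chow to 67.7 CPM on WTD and 77.0 CPM in treated mice. Its change on WTD was -0.82 (SE 0.12, adjusted p = 6.7e-08) and its change from chow to treatment -0.56 (SE 0.12, adjusted p = 0.00014), while 0.26 from WTD to treatment was not called (adjusted p = 0.089).

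The remaining intrinsic members changed less. Kng2, the other kininogen gene of the mouse, which lies 28382 bases from Kng1 on the opposite strand, had medians of 464, 332 and 443 CPM on chow, WTD and treatment. F12, factor XII, the starting protease of the contact pathway, had medians of 608, 458 and 619 CPM in the same order. Both were lower on WTD (-0.48 for Kng2 and -0.34 for F12) and higher in treated than in WTD mice (0.35 and 0.36). Without the 8 libraries with many missing weak genes the Kng2 difference with treatment was 0.33 and missed the threshold (adjusted p = 0.016). All 16 treated mice exceeded the WTD median for F12, and the treated and chow groups differed by 0.02 (SE 0.07, adjusted p = 0.84). F9, factor IX, the protease lacking in haemophilia B, fell by 0.43 on the log2 scale on WTD, with medians of 189, 138 and 166 CPM. Its change from WTD to treatment was 0.23 (adjusted p = 0.039) and was not called.

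In the common pathway, F10 and F2 fell on WTD and F5 did not pass the test. F2, prothrombin, ranged from 2071 to 2600.1 CPM on chow (median 2498), 1244 to 2135 CPM on WTD (median 1580) and 1454 to 2485 CPM in treated mice (median 2177). All but 1 WTD mouse were below the lowest chow mouse, and 9 treated mice were above the highest WTD mouse. F2 fell by 34.4% on WTD (-0.61, SE 0.08, adjusted p = 7.9e-09) and was 1.28 times the WTD level in treated mice (0.36, SE 0.07, adjusted p = 0.00036). F10, the protease that makes thrombin, had medians of 849.6, 465.9 and 592 CPM on chow, WTD and treatment, with 15 of 16 WTD mice below all chow mice. The change was -0.82 on WTD (SE 0.08, adjusted p = 1.4e-11) and -0.59 from chow to treatment (SE 0.09, adjusted p = 1.6e-07). F5, the cofactor of factor X, had medians of 416, 361 and 485 CPM, a WTD change of -0.24 with an adjusted p of 0.021, and a positive change from WTD to treatment (0.43, SE 0.08, adjusted p = 0.00012). For F5, 16 of 16 treated mice lay above the WTD median.

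**Figure D2:**
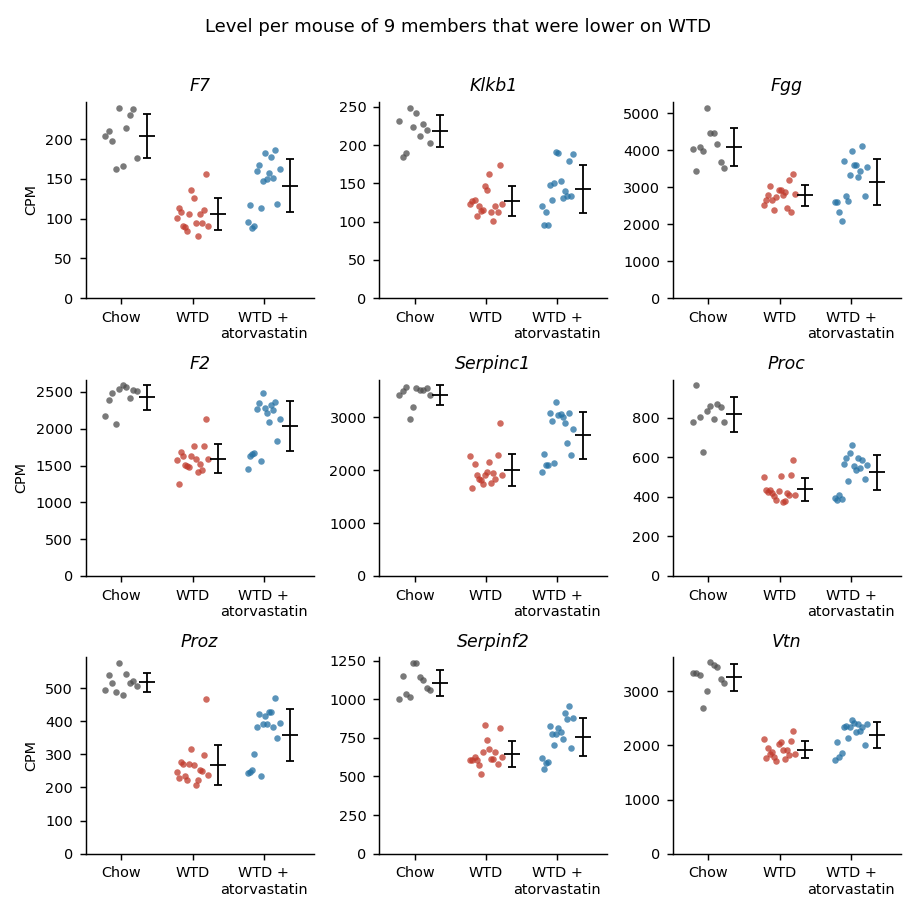
CPM per mouse (y axis, from 0) of 9 members that fell on WTD, with the mean ± SD beside the points of each group (10 Chow, 16 WTD and 16 WTD + atorvastatin mice). For all 9 the mean of the treated mice lies between those of WTD and chow, and in F7, Klkb1, Fgg, Serpinc1, Proc, Proz, Serpinf2 and Vtn no WTD mouse overlaps the chow mice.

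The 3 fibrinogen genes fell together on WTD, where Fga fell by 18.8%, Fgb fell by 29.1% and Fgg fell by 32.2%. Fgg, the gamma chain, ranged from 3436 to 5154 CPM on chow, 2342 to 3349.7 CPM on WTD and 2074 to 4127 CPM in treated mice. All WTD mice were below all chow mice (-0.56, SE 0.09, adjusted p = 3.6e-07), and the treated mice spanned both groups. Fgb, the beta chain, had medians of 5002, 3617 and 4334 CPM and a WTD change of -0.50, and Fga, the alpha chain, medians of 4104, 3439 and 4023 CPM and a WTD change of -0.30. The fall of Fga missed the threshold without Chow mouse 5 (adjusted p = 0.014), without the 8 libraries (-0.28, adjusted p = 0.031) and among genes with at least 10 counts in every mouse. From WTD to treatment the changes were 0.22, 0.18 and 0.18 for Fga, Fgb and Fgg, with adjusted p-values of 0.049, 0.13 and 0.12.

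Within each group the fibrinogen genes, which lie within 1 stretch of chromosome 3 with 6513 and 11026 bases between neighbours, varied together from mouse to mouse. Pearson's r of Fgb with Fgg was 0.97 on chow (Spearman's rho 0.98) and 0.90 on WTD (rho 0.93). Over the 3 pairs in these groups r was 0.83 to 0.97, the permutation p-values adjusted over 27 relations were 0.0012 or lower, and without the 2 mice farthest from the median r was 0.75 to 0.94. Over all 16 treated mice the 3 pairs had r of 0.96 to 0.97 (adjusted p = 3.9e-05 each). Treated mice 1, 2, 3, 4, 7 and 15 were the lowest of their group for many members, so relations among treated mice are also given within these 6 and within the other 10, adjusted over 18 relations. For the fibrinogen genes mice 1, 2, 3, 4, 6 and 7 were the 6 lowest, so this split follows their own levels in part. Fgg was at 2074.5 to 2774.5 CPM in the 6 split mice and 2767 to 4127 CPM in the other 10. P-values of the fibrinogen genes within these sets therefore describe mice cut partly on the same genes, and carry little weight as tests. Fgb with Fgg had r of 0.97 in the 6 mice (exact permutation test, adjusted p = 0.013) and 0.93 in the other 10 (adjusted p = 0.0026). In those 10 its rho was 0.64 and did not pass (adjusted p of rho = 0.088). For Fga with Fgb r was 0.87 and 0.91, and for Fga with Fgg 0.85 and 0.92, with adjusted p-values of 0.044 in the 6 mice (exact permutation test) and at most 0.0031 in the 10. The ratio of Fgg to Fga, each in CPM, was 0.919 to 1.04 in chow mice, 0.739 to 0.928 in WTD mice and 0.712 to 0.873 in treated mice. The ratios of the chow mice and of the treated mice did not overlap. Since this ratio was chosen after its values were seen, it carries no test.

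**Figure D3:**
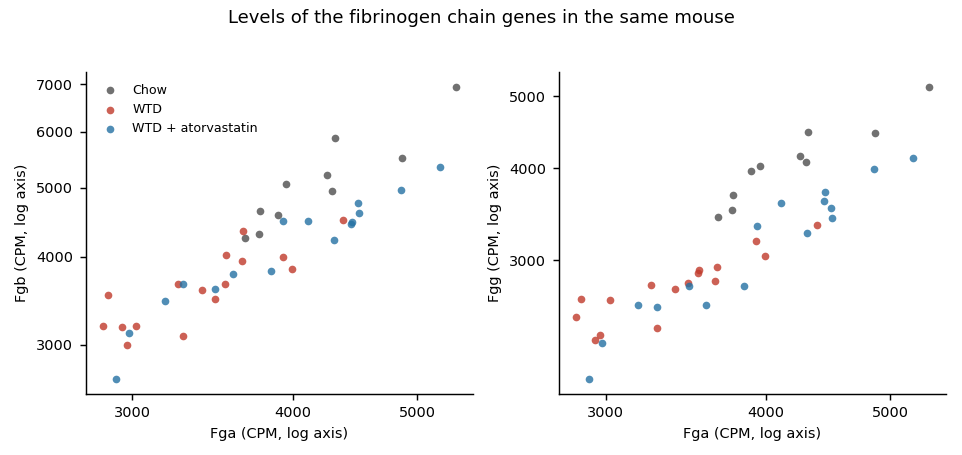
Fgb (left) and Fgg (right) against Fga in the same mouse, in CPM on log axes, with 1 point per mouse and a colour per group. The points of each group lie along a line, and at the same Fga level the chow mice lie above most mice of the other groups.

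The genes of factor XIII, the transglutaminase that crosslinks fibrin, stood apart from each other. F13b, the carrier subunit made by hepatocytes, had medians of 181, 145 and 189.7 CPM, with changes of -0.27 on WTD (adjusted p = 0.02, not called) and 0.31 from WTD to treatment (adjusted p = 0.0092). That call held in 3 of 9 alternatives and with 15 of the 42 mice left out in turn. F13a1, the catalytic subunit made mainly by macrophages and platelets, was near the detection limit, at 0 to 1.91 CPM on chow (median 0.063, no count in 5 of 10 mice). It was at 0 to 5.50 CPM on WTD (median 2.37) and 0.462 to 2.62 CPM in treated mice (median 1.16). F13a1 rose on WTD (2.60, SE 0.68, adjusted p = 0.0013), from a mean of 7.80 to 59.2 counts per mouse, and 11 of 16 WTD mice exceeded all chow mice. Its size was uncertain, at 3.29 without Chow mouse 1 and between 2.04 and 3.77 over the alternative analyses. In a fit of the 2 groups alone the call was lost (adjusted p = 0.011). The change from WTD to treatment, -1.04, was not called (SE 0.53, adjusted p = 0.22). Macrophage markers rose on WTD as well, and platelet markers did not pass the test. The Cd68 and F13a1 levels of the same mouse gave r of 0.33 on chow and 0.41 on WTD, with adjusted p-values of 0.41 and 0.15.

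Among the 7 anticoagulants, Serpinc1, Serpind1, Serpina10, Proc and Proz fell on WTD and Pros1 rose. Serpinc1, antithrombin, the main plasma inhibitor of thrombin and factor X, ranged from 2973 to 3581 CPM on chow, 1668 to 2891 CPM on WTD and 1968 to 3285 CPM in treated mice. No WTD mouse overlapped the chow group, and all 16 treated mice exceeded the WTD median of 1909 CPM. Its changes were -0.78 on WTD (SE 0.08, adjusted p = 2.2e-11), 0.41 from WTD to treatment (SE 0.07, adjusted p = 8.4e-05) and -0.36 from chow to treatment (SE 0.08, adjusted p = 0.00037). Proc, protein C, a protease that inactivates factors V and VIII, ranged from 624 to 962 CPM on chow, 374 to 586 CPM on WTD and 381 to 663 CPM in treated mice. WTD mice again lay below all chow mice, with a fall of 46.3% (-0.90, SE 0.08, adjusted p = 4e-13). From WTD to treatment Proc changed by 0.26 (SE 0.07) with an adjusted p of 0.014, and from chow to treatment by -0.64 (SE 0.08, adjusted p = 1.4e-08).

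Proz, protein Z, the cofactor with which the Serpina10 product inhibits factor X, had, with F7, the deepest fall of the 31 members on WTD in the fit across all mice. Its range was 479 to 574 CPM on chow, 207 to 466.1 CPM on WTD and 233 to 469 CPM in treated mice, so neither diet group reached the lowest chow mouse. The fall on WTD was 48.5% (-0.96, SE 0.10, adjusted p = 4.4e-11), and the treated mice were 1.34 times the WTD level (0.42, SE 0.09, adjusted p = 0.00097). Without the 8 libraries named above, the difference between treated and WTD mice had an adjusted p of 0.011. Serpina10 itself, with medians of 262, 198 and 192 CPM, was lower on WTD (-0.32, adjusted p = 0.0017) and was the only 1 of the 21 lower members with a negative change from WTD to treatment (-0.16, adjusted p = 0.19). Serpind1, heparin cofactor II, had medians of 577, 415 and 547 CPM, changes of -0.41 and 0.34 in the same order, both called, and -0.07 from chow to treatment (adjusted p = 0.54). Pros1, protein S, the cofactor of protein C, rose on WTD by 0.43 (adjusted p = 0.00031), with medians of 66.6, 88.2 and 78.6 CPM. Thbd, thrombomodulin, the endothelial receptor that turns thrombin toward protein C, had medians of 3.80, 7.19 and 6.60 CPM and was not called in any comparison (0.89 on WTD, SE 0.37, adjusted p = 0.048).

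The plasminogen system split on WTD, with the zymogen and its plasma regulators lower and the activators and their receptor higher. Plg, plasminogen, ranged from 2515 to 3219 CPM on chow, 1441 to 2700.2 CPM on WTD and 1625 to 3123 CPM in treated mice. All but 1 WTD mouse lay below the chow range (-0.75, SE 0.09, adjusted p = 4.3e-10). Treated mice had 1.32 times the WTD level (0.40, SE 0.08, adjusted p = 0.00029) and stayed below chow (-0.35, SE 0.09, adjusted p = 0.0014). Serpinf2, the antiplasmin gene, had medians of 1096, 619.7 and 775 CPM on chow, WTD and treatment. Vtn, vitronectin, an adhesive protein of matrix and plasma, had medians of 3319, 1894 and 2295 CPM. For both, all 16 WTD mice and all 16 treated mice were below the lowest chow mouse, at 1004 and 2692 CPM. Serpinf2 changed by -0.77 on WTD (SE 0.08, adjusted p = 7.3e-12) and Vtn by -0.76 (SE 0.06, adjusted p = 1.1e-14). From WTD to treatment the differences of 0.22 and 0.19 were not called, with adjusted p-values of 0.027 and 0.015. Cpb2, the carboxypeptidase that protects fibrin from plasmin, was lower on WTD (-0.24, adjusted p = 0.0029, and 0.012 when each mouse had to reach 10 counts), with medians of 336, 270.4 and 296 CPM.

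Plat, the tissue plasminogen activator, had the largest rise of the 31 members in the fit across all mice. It ranged from 0 to 3.97 CPM on chow (median 1.68, no count in 2 mice), 1.56 to 29.7 CPM on WTD (median 21.1) and 3.39 to 23.4 CPM in treated mice (median 10.4). All but 2 WTD mice and all but 1 treated mouse exceeded every chow mouse. The level on WTD was 12.1-fold that on chow (3.59, SE 0.47, adjusted p = 3.1e-08). Plau, urokinase, ranged from 0 to 5.60 CPM on chow, 11.2 to 35.8 CPM on WTD and 8.44 to 25.1 CPM in treated mice. It was the 1 member for which both diet groups lay wholly above chow (3.29, SE 0.38, adjusted p = 1.1e-09 on WTD, and 2.67, SE 0.37, adjusted p = 1.5e-07 in treated mice). Plaur, the urokinase receptor, which macrophages carry among other cells, ranged from 0 to 6.62 CPM on chow, 4.40 to 17.6 CPM on WTD and 4.54 to 10.6 CPM in treated mice. Its change on WTD was 2.53 (SE 0.33, adjusted p = 6.6e-09), and 15 of 16 WTD mice exceeded the highest chow mouse. Relative to WTD, treated mice differed by -0.78 for Plat, -0.63 for Plau and -0.41 for Plaur, with adjusted p-values of 0.14, 0.14 and 0.34, and 15 of 16 treated mice were below the WTD median for each. Limma-voom with sample quality weights called all 3 lower in treated than in WTD mice (adjusted p = 0.00012, 0.0002 and 0.00087). In that comparison it called 3145 of all 15574 tested genes. Without the 8 libraries with many missing weak genes, the changes on WTD were 3.58, 2.90 and 2.90. Every remaining WTD mouse of Plat, Plau, Plaur and F3 then lay above all remaining chow mice. With fewer mice this is easier for any gene, and the share over all genes was not computed. The tested macrophage and cholangiocyte markers, and 4 of 8 stellate cell and fibroblast markers, were also called higher on WTD. Their part in the rise of these genes was not tested.

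**Figure D4:**
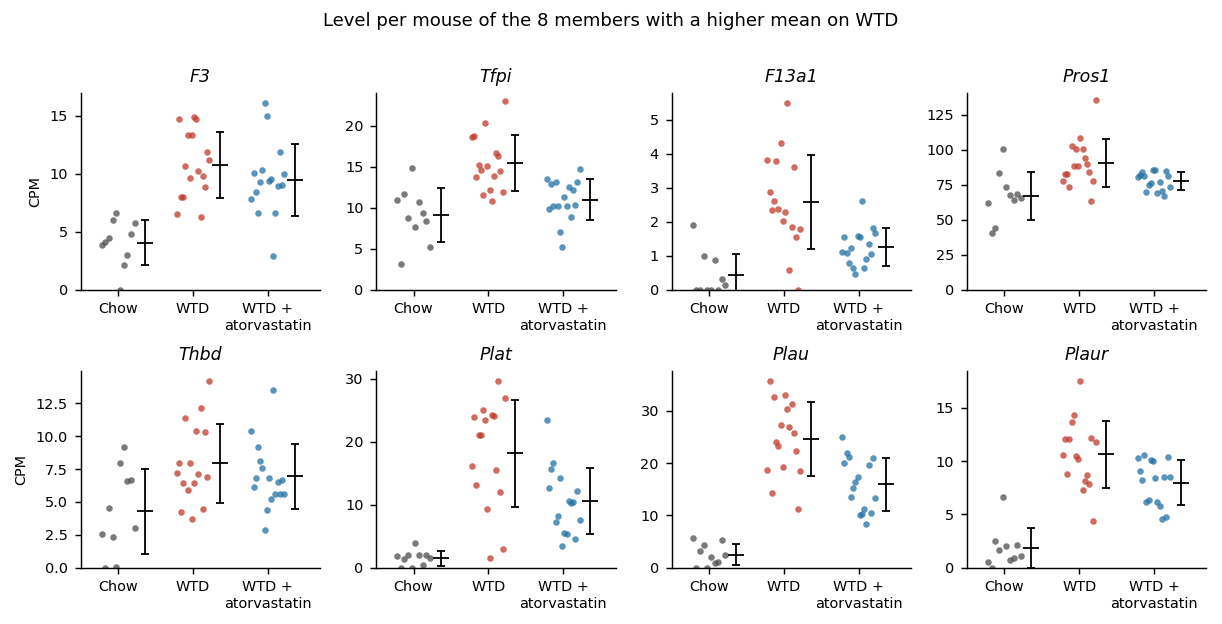
CPM per mouse (y axis, from 0) of the 8 members with a higher mean on WTD than on chow, with the mean ± SD beside the points of each group (10 Chow, 16 WTD and 16 WTD + atorvastatin mice). Plau has no overlap between chow and either diet group, Plat and Plaur overlap in a few mice, and the Thbd groups overlap widely.

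The treated mice were compared with WTD mice to ask how far atorvastatin moved these genes on the same diet. This comparison shares the WTD mice with that of WTD against chow, and the values of both are therefore given side by side. In treated mice F7, F12, Kng1, Kng2, F5, F2, F13b, Serpinc1, Serpind1, Proz and Plg were called higher, with changes between 0.31 and 0.43. These 11 of 31 members (35.5%) compare with 7.10% of all tested genes called, 4.84% called higher and 2.26% called lower. The median change of the members was 0.22, with 22 positive and 9 negative, and that of all tested genes was 0.0016. Of these 11 genes, 9 were called lower on WTD, by 0.34 to 0.96 on the log2 scale, and F5 and F13b were not. Without WTD mouse 15 both were called lower on WTD as well, F5 at -0.28 (adjusted p = 0.0043) and F13b at -0.33 (adjusted p = 0.0016). None of the 7 members that rose on WTD was called in treated against WTD mice in the edgeR fit across all mice. Tfpi passed in other fits, as given above, and Plau was lower in a fit of the 2 groups alone (-0.64, adjusted p = 0.0028). DESeq2 called 1 member lower, Tfpi, and 10 higher, and 1400 of 13310 genes in all. Limma-voom with sample quality weights called 26 members in this comparison, 21 higher and 5 lower, and 3145 of 15574 genes (1835 higher and 1310 lower). The 5 lower were Tfpi, Pros1, Plat, Plau and Plaur. At an adjusted p under 0.05 edgeR called 18, 17 higher and 1 lower. At an unadjusted p under 0.05, 5 members were lower in treated mice and 21 higher. The shares of all genes at these looser thresholds are not given here.

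Compared with chow, treated mice had 17 members called (54.8%), against 25.0% of all tested genes. The 13 lower members compare with 10.7% of all genes and the 4 higher members, F3, Plat, Plau and Plaur, with 14.2%. In Proz, Serpinf2 and Vtn all treated mice were below all chow mice (1.50% of all genes), and in Plau all were above them (2.88%). The members called lower both on WTD and under treatment, but not called between the diet groups, were Klkb1, F11, F10, Fgb, Fgg, Serpina10, Proc, Serpinf2 and Vtn. F7, Serpinc1, Proz and Plg were called in all 3 comparisons, lower on WTD, higher in treated than in WTD mice and lower in treated than in chow mice. F12, Kng1, Kng2, F2 and Serpind1 were lower on WTD and higher under treatment, and their difference between treated and chow mice was not called, at -0.30 to 0.02. The Fgb difference between treated and chow mice missed the threshold without the 8 libraries (-0.25, adjusted p = 0.041), with limma-voom and without Chow mouse 5 (adjusted p = 0.017). For Kng1 and F2 the difference from chow was close to the threshold, with an adjusted p of 0.011 each.

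**Figure D5:**
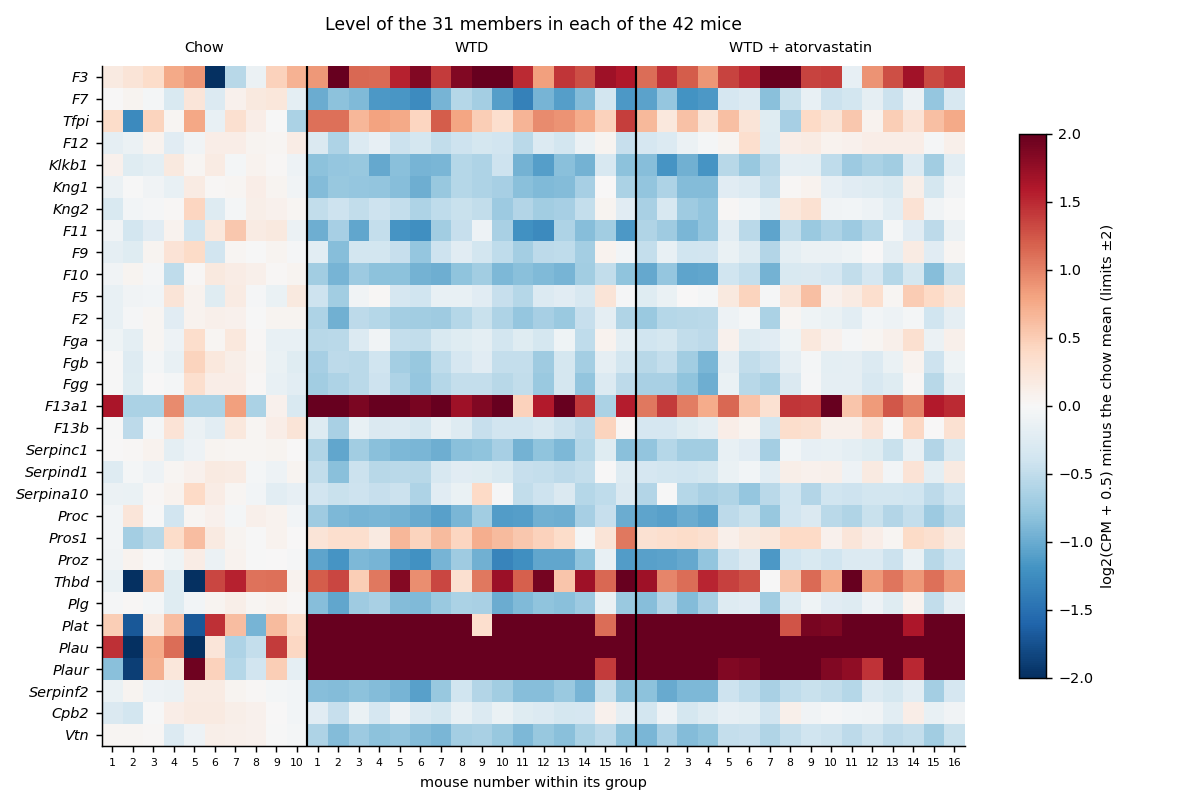
Level of the 31 members (rows, ordered by role) in each of the 42 mice (columns), as log2(CPM + 0.5) minus the mean of the chow mice, with colours limited to ±2. WTD mouse 15 is paler than its group in most blue rows, and treated mice 1, 2, 3, 4 and 7 are darker blue than most treated mice.

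Single mice departed from their group across many members. The mean log2 difference from chow over the 21 members that fell was -0.22 in WTD mouse 15 and -0.82 to -0.46 in the other 15 WTD mice. WTD mouse 15 was the highest of its group for 18 of these 21 members. Its mean difference over the 7 members that rose was 1.12, the lowest of the WTD group. The summed hepatocyte markers of this mouse were 108310 CPM, against 54521 to 75751 CPM in the other WTD mice, and its macrophage markers 1005 CPM against 1728 to 2678 CPM. Their part in its values was not tested. Without WTD mouse 15, 30 members were called on WTD against chow and 15 in treated against WTD mice, the added 4 being F9, Proc, Serpinf2 and Vtn, all higher. The share of all genes called in that fit is not given here, so the gain cannot be read as particular to the members. Then 12 members had every WTD mouse below all chow mice, against 4.22% of all genes, and 2, Plau and Plaur, had every mouse above, against 4.55%.

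In the treated group the mean over the 21 members that fell ranged from -0.74 to -0.06. For 12 of the 31 members the 6 lowest treated mice were mice 1, 2, 3, 4, 7 and 15, among them F7, F10, F2, Serpinc1, Proc and Plg. Between the sixth and seventh lowest treated mouse lay a gap from 118 to 148 CPM for F7 and from 481 to 555 CPM for F10. Within the WTD group no set of 6 lowest mice was shared by more than 2 members. F7 and F10 lie 1498 bases apart on chromosome 8, and Proz follows at 4237 bases. Treated mice 1, 2, 3, 4, 7 and 15 were picked for low values of members that include F7, F10 and Kng1. P-values within these 6 or within the other 10 therefore describe sets cut on the same genes and carry no weight as tests of them. For F7 and F10 all 16 treated mice gave r of 0.95 (rho 0.80, adjusted p = 3.9e-05), which includes the gap between 2 separate clusters. Within the 6 mice r was 0.91 (exact permutation test, adjusted p = 0.044) and within the other 10 it was 0.38 (adjusted p = 0.38). For the same pair r was 0.40 on chow (rho 0.16, adjusted p = 0.33) and 0.59 on WTD (rho 0.43, adjusted p = 0.027), falling to 0.34 without the 2 farthest mice. On WTD its rho did not pass (permutation test, adjusted p of rho = 0.16). Kng1 and Kng2 had r of 0.61 on chow (rho 0.59, adjusted p = 0.082) and 0.81 on WTD (rho 0.60, adjusted p = 0.0044), which dropped to 0.42 without the 2 farthest mice and rests on them. Over all 16 treated mice Kng1 and Kng2 had r of 0.97 (rho 0.94, adjusted p = 3.9e-05). Within the 6 treated mice r was 0.99 (exact permutation test, adjusted p = 0.01) and within the other 10 it was 0.93 (adjusted p = 0.0026). These genes share 45 of the 150-base windows, 2.14% of those of Kng1 and 2.10% of those of Kng2, so reads there may be counted for either or none.

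Relations of the rising members with each other and with cell markers did not pass by Pearson's r on chow or on WTD. Nor did they pass within the 6 or the other 10 treated mice. Over all 16 treated mice Plau with Plaur had r of 0.80 (rho 0.75, permutation test, adjusted p = 0.00064). Plaur with Cd68 had 0.64 (rho 0.67, adjusted p = 0.015) and F3 with Pecam1 0.61 (rho 0.39, adjusted p = 0.034). Without the 2 farthest mice these were 0.71, 0.44 and 0.47. F13a1 with Cd68 gave -0.01 (adjusted p = 0.97). The rho of F3 with Pecam1 over all 16 treated mice did not pass (permutation test, adjusted p of rho = 0.21). Pooled values include any difference between the 2 sets, whose ranges overlapped for Plau, Plaur, F3 and F13a1. For Plau and Plaur, the activator and its receptor, treated mice 1, 2, 3, 4, 7 and 15 were at 16.4 to 25.1 CPM of Plau and 8.26 to 10.6 CPM of Plaur, and the other 10 at 8.44 to 19.6 and 4.54 to 10.1 CPM. Between the 2 genes r was -0.02 within the 6 mice (exact permutation test, adjusted p = 0.96) and 0.68 within the other 10 (rho 0.66, adjusted p = 0.061). On WTD r was 0.49 (rho 0.24, adjusted p = 0.081) and on chow 0.24 (rho 0.09, adjusted p = 0.55). Plaur with Cd68, a macrophage gene, had r of 0.64 in the 6 treated mice (exact permutation test, adjusted p = 0.24), 0.26 in the other 10 (adjusted p = 0.59) and 0.49 on WTD (rho 0.32, adjusted p = 0.081). On chow it was 0.22 (rho 0.25, adjusted p = 0.6). F3 with the endothelial gene Pecam1 had r of -0.60 on chow (rho -0.71, adjusted p = 0.089), -0.14 on WTD (rho -0.12, adjusted p = 0.63) and 0.67 in the 10 treated mice (adjusted p = 0.064). In the 6 treated mice it was 0.33 (exact permutation test, adjusted p = 0.64). On chow the rho of F3 with Pecam1 passed at 0.05 (permutation test, adjusted p of rho = 0.049). Adjusted p-values of relations are those of Pearson's r unless rho is named with them.

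A wider list of 24 coagulation and fibrinolysis genes gave 20 tested genes, with 7 called higher and 6 called lower in WTD than in chow mice. Anxa2, a cell surface receptor for plasminogen and its tissue activator, rose by 2.60 (SE 0.21) and was lower in treated than in WTD mice (-0.94, SE 0.16, adjusted p = 9.4e-05). Serpine2, an inhibitor of thrombin and of the activators, changed by 1.63 and -1.26 in the same order, both called. The thrombin receptor gene F2r and its relative F2rl1 rose by 1.91 and 3.28, Fgl2, a prothrombinase of macrophages and endothelium, by 2.43 and Tgm2, a tissue transglutaminase, by 1.45. Between treated and WTD mice 5 genes of this list were higher and 2 lower. The 5 were Tfpi2 (0.42), Hrg (0.34), Pzp (0.40), Adamts13 (0.86), the protease that trims von Willebrand factor, and Lman1 (0.31), a cargo receptor for factors V and VIII.

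Of the vitamin K genes, which serve the carboxylation that factors II, VII, IX and X and proteins C, S and Z need, 5 of 6 were tested. Ggcx, the carboxylase, and Aifm2 were lower on WTD and Calu was higher, and from WTD to treatment the changes of the 5 were -0.12 to 0.31, with none past the threshold (adjusted p = 0.011 for Ggcx). Vkorc1 was listed at 0 in nearly every mouse and overlaps the gene model Gm21974 on its strand, so it was not tested. Among the liver transcription factors, Nr1h4 (-0.84), Cebpa (-0.32) and Hnf4a (-0.31) were lower on WTD. Hnf4a (0.33, SE 0.07, adjusted p = 0.00064) was higher in treated than in WTD mice.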

How the data were processed

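Liver mRNA was sequenced as 1 strand-specific, poly(A)-selected library per mouse. The authors trimmed reads with Trimmomatic, aligned them with STAR 2.5 to GRCm38 and counted them per gene with HTSeq 0.6.1p1, and the deposited values are raw counts. The 42 single tables were identical to the columns of the whole table. No-feature, ambiguous and non-unique read pairs (2.28%, 5.96% and 4.68% on average) were left out. Read pairs shared by overlapping genes therefore went uncounted.

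The members and the lists of other genes were chosen with earlier results of these data known. Groups follow the sample labels. Of 54446 genes, those kept by filterByExpr at a minimum count of 10 and a minimum total of 15 were fitted across the 3 groups with edgeR 4.0.16 (TMM scaling, robust quasi-likelihood test) in R 4.3.3. P-values were adjusted over 15574 genes and called under 0.01. The SE is the absolute log2 fold change divided by the square root of F. CPM use TMM-scaled library sizes. RPKM use the union of annotated exons, which understates genes with long, rarely used exons. Correlations used log2 CPM (prior count 2) and 100000 permutations, two-sided, with Benjamini-Hochberg adjustment over 27 relations. Treated mice were split into the 6 that were the lowest for 12 members and the other 10, a choice made after seeing the data, with an exact permutation test for the 6 and adjustment over 18 relations. Tested on simulated counts of 15574 genes for WTD against chow, the script called 169 of 200 genes given a log2 change of 1, each with the right sign, and 3 unchanged genes.

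Every member was named, with full statistics for those called in any comparison and changed by 0.5 or more on the log2 scale. Genes of the other lists were named at 1 or more on WTD, or when called between treated and WTD mice, and some genes of these lists are not reported here. The fit was repeated with DESeq2 1.42.0, with limma 3.58.1 by voom and quality weights, with other scalings, filters, thresholds and sample sets, and each mouse left out. The p-values measure the spread between mice, each of which gave a single library. Only genes on the reference were counted. The human transgene was not analysed here. Sequences came from RefSeq windows on GRCm38.p6.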

Additional observations from a re-analysis of the deposited data

Results flagged for a closer look

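In the chow group of 10 mice, each of the 31 members was checked for a mouse far from the others, by Dixon's ratio of the gap to the range against its 95% critical value. In 4 of 31 members the lowest mouse passed it, and chance alone flags about 1 in 20 such groups. F3 was at 0.0 CPM in Chow mouse 6, where the nearest mouse had 2.13 CPM (ratio 0.742). That library is among those in which many weak genes had no count (28.1% of the genes at 1 to 2 CPM). Chow mouse 4 was the lowest for the other 3 members. It had 580.7 CPM of F10 against 789 CPM in the nearest mouse (ratio 0.631), 624 CPM of Proc against 778.5 CPM (ratio 0.510) and 2515 CPM of Plg against 2855 CPM (ratio 0.513). Its summed macrophage and monocyte markers, 237 CPM, were the highest of the chow group (161 to 230.0 CPM in the others), and its hepatocyte markers, 118860 CPM, ranked 3 of 10 from the lowest. Their part in these low values was not tested.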

How the results depend on the processing

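Of the 31 members, 28 were called for WTD against chow, 11 for treated against WTD and 17 for treated against chow mice. Asking also for a log2 change of 1 or more in size left 5, 0 and 4 members. In treated against WTD mice, limma-voom with sample quality weights called 26, beside 3145 of all 15574 genes, and an adjusted p under 0.05 called 18. No other scaling, filter, tool or sample set moved these counts by more than 1.5 times, and no called member reversed its direction in any alternative run. With each of the 42 mice left out in turn, the counts ranged from 27 to 30, 10 to 15 and 16 to 19. The highest count of the first and second comparison came without WTD mouse 15. Shares of all genes called in these fits are not given here. Of the 27 relations between pairs, with all treated mice pooled, 16 passed at 0.05, also 16 with RLE scaling and 14 without the 8 libraries with many missing weak genes. Within the 2 sets of treated mice, which were cut on the levels of some of these genes, 9 of 18 passed. The median of all genes moved by at most 0.0652 on the log2 scale under any alternative. Without those 8 libraries, 4 members had every WTD mouse and 3 every treated mouse above all chow mice, in place of 1 each. Fewer mice make this easier for any gene, and its share over all genes was not computed. The alternative without the 8 libraries, and the one without WTD mouse 15 for these ranges, were chosen after seeing the data. No paired analysis was possible because the mouse numbers name different animals in each group and were given in accession order. Weakly expressed members (F13a1, Plat, Plaur, Plau, Thbd and F3) are limited by depth, at a mean of 7.80 to 82.9 counts per chow mouse.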
